A study of Mus musculus with 14 samples.

Results

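The early response of I1DN leukemic progenitors to AG120 was measured after 5 days of treatment, in 3 libraries from AG120 mice and 3 from vehicle mice, which are 6 of the 14 libraries of the series. The 6 samples were chosen by treatment and day in their labels, and all genes were considered. Mice of both groups had received transplants of I1DN leukemic cells; the labels do not spell out the name. AG120 (ivosidenib) inhibits mutant IDH1, the enzyme form that turns 2-oxoglutarate into 2-hydroxyglutarate. Progenitors that carried cKit and lacked CD11b were sorted from each mouse, so each library stood for 1 mouse. The sources used here do not give mouse strain, age, dose or the make-up of the vehicle, and the labels name no marker that separates transplanted cells from those of the host.

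Acute myeloid leukemia is a block in differentiation, and its progenitors share surface molecules and transcription factors with normal blood precursors. Erythroid maturation runs under GATA1 and KLF1, which drive genes of the red cell membrane, heme synthesis and iron uptake, while globin accumulates late. PU.1, encoded by Spi1, drives the granulocyte and monocyte program.

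Promoter stretches of 11 genes are shown to print letters that GATA factors, NRF2 and PU.1 are known to read; transcripts of Gata1, Nfe2l2 and Spi1 are described further on. The stretches are from RefSeq (GRCm38.p6), run 5′ to 3′ on the gene's strand and end at or before the start site. The genes were chosen after their values were seen, by direction and by these letters, so neither is a finding. In the first set, of genes that rose, capitals mark AGATAA, the letters of GATA factors, or its reverse complement TTATCT, between −56 and −35 from the start site.
Kel, chr6:41704339-41704418, minus strand: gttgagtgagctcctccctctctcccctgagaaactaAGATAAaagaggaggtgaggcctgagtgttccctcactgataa
Rhd, chr4:134864456-134864535, plus strand: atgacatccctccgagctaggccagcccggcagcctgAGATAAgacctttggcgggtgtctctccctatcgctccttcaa
Pklr, chr3:89136062-89136141, plus strand: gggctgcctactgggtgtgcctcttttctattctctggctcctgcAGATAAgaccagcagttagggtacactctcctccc
Epor, chr9:21963588-21963667, minus strand: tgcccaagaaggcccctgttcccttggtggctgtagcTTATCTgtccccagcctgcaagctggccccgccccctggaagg
Icam4, chr9:21029352-21029431, plus strand: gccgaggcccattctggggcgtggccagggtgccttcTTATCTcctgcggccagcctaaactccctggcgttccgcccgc
In the second set, of oxidant defence genes that rose, capitals mark TGACNNNGC, the core of the antioxidant response element read by NRF2, on either strand.
Mt2, chr8:94172504-94172583, plus strand: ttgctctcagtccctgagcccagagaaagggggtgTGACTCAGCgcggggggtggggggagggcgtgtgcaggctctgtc
Gclm, chr3:122245388-122245467, plus strand: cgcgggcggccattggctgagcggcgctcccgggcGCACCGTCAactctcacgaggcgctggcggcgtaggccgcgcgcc
Gstm5, chr3:107895774-107895853, plus strand: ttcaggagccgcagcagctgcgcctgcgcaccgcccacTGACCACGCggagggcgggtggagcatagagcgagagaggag
In the third set, of genes that fell, capitals mark GAGGAAGT, letters of PU.1, on either strand: Fmnl1 is a formin of blood cells, Havcr2 an inhibitory immune receptor and S100a8 a calcium-binding protein of granulocytes.
Fmnl1, chr11:103171052-103171131, plus strand: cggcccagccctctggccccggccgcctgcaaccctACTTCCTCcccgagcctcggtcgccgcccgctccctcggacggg
Havcr2, chr11:46454851-46454930, plus strand: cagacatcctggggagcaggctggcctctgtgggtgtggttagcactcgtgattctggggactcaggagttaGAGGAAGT
S100a8, chr3:90668863-90668942, plus strand: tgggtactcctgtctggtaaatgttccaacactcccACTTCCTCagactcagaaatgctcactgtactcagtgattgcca

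The letters of 7 motifs were counted on both strands of windows from 250 bases before to 50 after each start site. There were 10988 windows of 8649 tested genes, of which 724 belonged to genes that rose over 2-fold and 1379 to genes that fell over 2-fold. AGATAA was in 6.63% of tested windows, 9.53% of those of risen genes and 7.69% of those of fallen genes, against 11.2% of all 32851 windows. GAGGAAGT was in 3.37%, 1.80% and 6.02% in the same order, and in 3.20% of all windows. CACGTG, the E-box read by MYC and its partners, was in 10.2%, 12.98% and 7.40%, and in 7.15% of all windows. CCGGAAGT, letters of other ETS factors that share GGAAGT with the PU.1 letters, was in 8.77%, 7.04% and 2.61%, and in 3.89% of all windows. TGTGGT of RUNX factors was in 12.7%, 15.1% and 14.6% (16.8% of all), CCACACCC of KLF1 in 3.74%, 2.76% and 4.28% (3.56%) and TGACNNNGC in 14.4%, 14.9% and 12.2% (12.4%). GC content was 60.6%, 60.5% and 59.2%, against 53.8% over all windows. In the sets from which the stretches come, with genes on chr18 left out, AGATAA was found in 8 of the 40 genes with a window (20%). TGACNNNGC was found in 5 of 20 (25%) and GAGGAAGT in 10 of 101 (9.90%). Pklr, which carries AGATAA, was added to the first of these sets by hand. These are shares of genes, with a match in any window of the gene counted, so they cannot be set against the shares of windows above. These shares were not tested, and a match is no evidence of binding.

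The libraries held 6184943 to 7422655 counts in AG120 and 6263518 to 7619764 in vehicle, of which ribosomal RNA gene models took 63.7% ± 1.43 and 55.9% ± 4.59 (SD, n = 3 each). Between 2275579 and 2578051 counts in AG120 and 2516653 and 3358874 in vehicle fell to other genes. Genes detected numbered 17151 to 18095 in AG120 and 19149 to 19770 in vehicle, and the part of these differences in the results was not tested. Log2 CPM correlated across genes at 0.978 to 0.981 within AG120, 0.980 to 0.987 within vehicle and 0.886 to 0.894 between them. The drug acts on the mutant enzyme and not on its transcript, so Idh1 does not check the labels; Idh1 had 20.9, 22.8 and 18 CPM in AG120 and 29.8, 33.2 and 37.7 in vehicle and did not pass (log2 fold change −0.71 ± 0.30, SE, adjusted p = 0.0789). CPM here is scaled by the TMM factors and includes ribosomal RNA in the total. QuantSeq reads 1 end of each transcript, so its counts do not scale with transcript length.

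Of 11994 genes tested, 4730 passed edgeR's quasi-likelihood test at an adjusted p under 0.05 (39.4%): 2410 rose (20.1%) and 2320 fell (19.3%). A change of over 2-fold was called for 849 that rose (7.08%) and 1458 that fell (12.2%). The CPM of the groups did not overlap for 7190 genes (59.9%). The same fit called 0 genes (0%) between vehicle day 14 (n = 2) and vehicle day 5, with 574 at an unadjusted p under 0.05, and DESeq2 and limma-voom called 0 as well. That count depended on the fit: 33 genes were called with no filter on low counts and 236 with only the groups compared. The AG120 effect differed between day 14 and day 5 for 112 genes (0.934%). Of the 5 ribosomal RNA models tested 4 rose. Counts of list members given below stand beside these shares of all genes, 20.1% and 19.3%, and a gene whose end (last kilobase) overlaps another tested gene may share reads with it. Fewer cells of a type and less RNA per cell cannot be told apart in such bulk samples.

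The median log2 fold change was −1.26 among genes that fell, 0.81 among those that rose and −0.00087 over all genes tested. Over 4-fold changes were called for 279 genes that rose and 624 that fell, and over 16-fold changes for 69 and 44. When the tested genes were ordered by mean level into 4 bins of 2998 or 2999 genes, the share that rose was 9.60%, 15.1%, 22.2% and 33.5% from the lowest bin to the highest. The share that fell was 20.5%, 20.6%, 21.2% and 15.1%. From the lowest bin to the highest, the median log2 fold change was 2.22, 1.04, 0.73 and 0.63 among genes that rose, and −2.17, −1.29, −0.93 and −0.69 among genes that fell. Within a bin the medians of rises and falls were thus closer in size than over all genes. Genes that rose gained 59922 CPM in sum, the ribosomal RNA models left aside, and genes that fell had a summed change of −39232.5 CPM. These sums depend on the scaling: the mean TMM factor was 0.938 ± 0.0457 in AG120 and 1.22 ± 0.107 in vehicle (SD, n = 3 each). They therefore do not show that more transcript was gained than lost. With ribosomal RNA models removed and no TMM, 42.4% of calls were higher, against 51.0% here. The 15 genes that moved most held 15.1% of the gain and 19.3% of the loss.

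**Figure D1:**
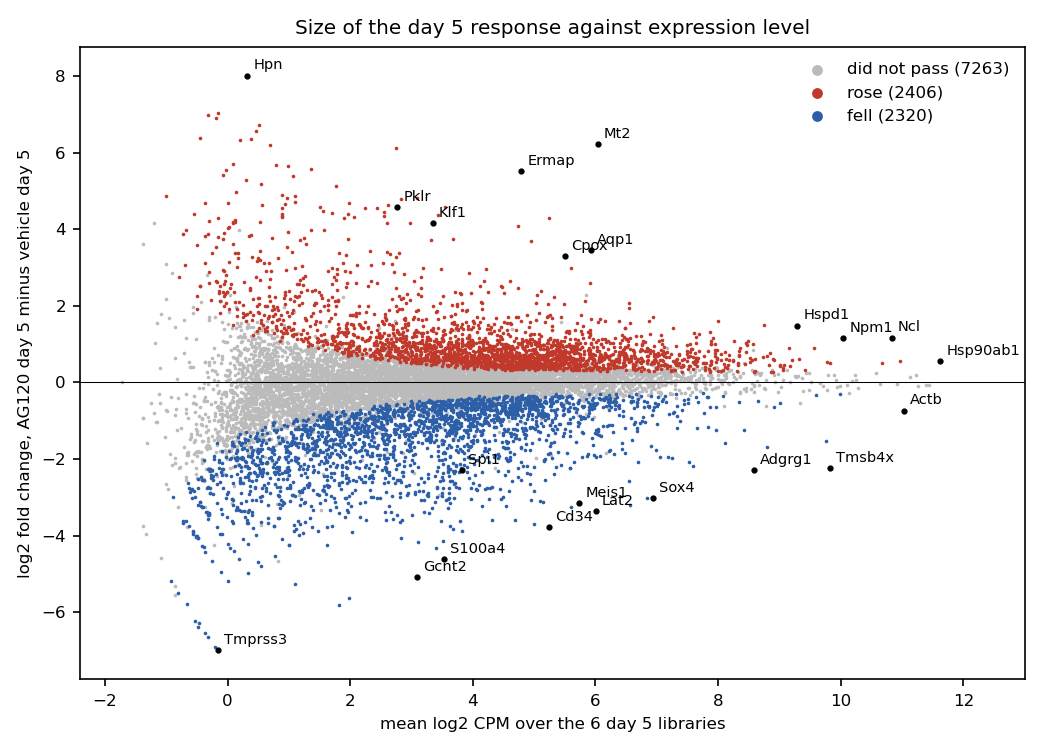
Log2 fold change (AG120 day 5 minus vehicle day 5) against the mean log2 CPM of the 6 libraries, 1 point per gene tested without the ribosomal RNA models; 2406 genes rose (red), 2320 fell (blue) and the rest did not pass (grey). Ncl, Npm1 and Hsp90ab1 lie at high levels with smaller changes than Mt2, Ermap and Gcnt2, which lie far from 0. The ends of Mt2 and Gcnt2 overlap gene models that moved the same way.

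By level, ribosomal RNA models aside, Ncl gained the most of the genes that rose. Ncl, nucleolin, which serves ribosomal RNA synthesis, had 3109, 2437 and 2662 CPM in AG120 and 1164, 1287 and 1200.3 in vehicle. Every AG120 library lay above every vehicle library, and Ncl rose 2.25-fold. Npm1, nucleophosmin, a nucleolar chaperone, rose from 707 ± 41.3 to 1575 ± 132 CPM (SD, n = 3 each, as for all CPM means below). Hspd1, the mitochondrial chaperone HSP60, rose from 375 ± 33 to 1052 ± 60.4 CPM. Hsp90ab1, the constitutive HSP90 of the cytosol, rose by 0.56 ± 0.12 on the log2 scale, where ± is the SE here and below. Ybx1 (0.91 ± 0.17) and Pa2g4 (0.91 ± 0.20), which bind RNA or ribosomes, were among the 15 largest gains too, as was mt-Nd2, a mitochondrially encoded subunit of complex I, at 1.501 ± 0.16, whose end overlaps a transfer RNA gene. The share of mitochondrial counts among other counts was 0.871% to 1.02% in AG120 and 0.626% to 0.801% in vehicle.

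By level, Tmsb4x lost the most of the genes that fell. Tmsb4x, thymosin beta 4, which holds actin monomers, had 421, 426 and 401 CPM in AG120 and 1848, 1958 and 2091 in vehicle. The vehicle libraries were all far higher, and Tmsb4x fell 4.73-fold. Actb, beta-actin, fell from 2699 ± 65.9 to 1618 ± 73.6 CPM. Adgrg1, the adhesion receptor GPR56 of stem and leukemic cells, had 182, 174 and 167 CPM in AG120 and 924, 825 and 798 in vehicle. Its groups were separate, at a 4.87-fold fall. Angpt1, a ligand of the TIE2 receptor, fell from 286 ± 22.6 to 31.2 ± 3.418 CPM and Laptm5, a lysosomal membrane protein of blood cells, fell from 409.8 ± 8.88 to 91 ± 5.74 CPM. Malat1, a nuclear long RNA, fell by 1.52 ± 0.32, and S100a8 fell by 2.07 ± 0.44. Mpo, myeloperoxidase of the primary granule, had 239, 305 and 219 CPM in AG120 and 525, 901 and 1007 in vehicle and fell by 1.67 ± 0.52 (adjusted p = 0.0289). Its call was lost without AG120 replicate 1 (−1.63, adjusted p = 0.0792), without AG120 replicate 2 (−1.82, adjusted p = 0.053), without AG120 replicate 3 (−1.58, adjusted p = 0.087), without vehicle replicate 2 (−1.59, adjusted p = 0.0684) and without vehicle replicate 3 (−1.49, adjusted p = 0.079). It was also lost with no filter on low counts (−1.71, adjusted p = 0.0741) and with a replicate block (−1.73, adjusted p = 0.0548).

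The largest fold changes at a mean log2 CPM of at least 3 held further genes outside the lists. Abcb4, a phospholipid flippase, had 162, 171 and 166 CPM in AG120 and 7.26, 9.84 and 8.14 in vehicle. It went from near 10 CPM to well over 100, 19.7-fold. Cyth3, an exchange factor of ARF GTPases, rose by 3.74 ± 0.32 and Ssx2ip, a centrosome protein, rose by 3.72 ± 0.44. On the other side, Ppp1r18, an actin-binding phosphatase subunit, fell by 3.88 ± 0.20, and Tespa1, a signalling protein of thymocytes, fell by 3.82 ± 0.22. S100a4, a calcium-binding protein of motile cells, fell from 54.1 ± 4.53 to 2.174 ± 0.3 CPM, and its end overlaps an unnamed gene model that fell as well.

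Erythroid and megakaryocyte factors moved both ways. Klf1, the erythroid Kruppel-like factor at chr8:84901928-84905291 (GRCm38), had 38.9, 41.3 and 40.9 CPM in AG120 and 2.28, 2.1 and 2.31 in vehicle. The libraries lay close together within each group, and Klf1 rose 18.1-fold (log2 fold change 4.17 ± 0.42, edgeR's adjusted p = 6.56e-06). Gata1, the main erythroid factor, had 34.1, 31.4 and 36.3 CPM in AG120 and 9.82, 8.95 and 8.25 in vehicle, also without overlap. Of 27 erythroid and megakaryocyte factors tested, 10 rose and 6 fell, with a median of 0.40. Nfia, a nuclear factor I protein of erythroid fate, rose by 3.39 ± 0.42, and Gfi1b, a repressor needed for red cells and platelets, rose from 3.53 ± 0.184 to 15.9 ± 0.621 CPM. Epor, the erythropoietin receptor, is no transcription factor but is counted in this list and among the cytokine receptors below. It rose from 1.88 ± 0.962 to 16 ± 1.69 CPM. Nfe2, a factor of platelet formation, fell by 1.33 ± 0.19 and Bach1, a heme-sensing repressor, fell by 1.06 ± 0.24. Lyl1, a relative of Tal1 whose end overlaps Nfix, fell by 1.46 ± 0.14. Gata2, which GATA1 displaces as cells mature, had 31.7, 26 and 30.5 CPM in AG120 and 80, 64.7 and 62 in vehicle. Its call (log2 fold change −1.23 ± 0.36, adjusted p = 0.0184) was lost without AG120 replicate 2 (−1.15, adjusted p = 0.0622) and without vehicle replicate 1 (−1.11, adjusted p = 0.0566), and with no filter on low counts (−1.26, adjusted p = 0.067). Tal1, a partner of GATA1 (60.6 ± 6.54 CPM in vehicle and 79.3 ± 4.72 in AG120) did not pass. Myb, a factor of progenitor growth, rose from 132 ± 1.93 to 186 ± 3.81 CPM.

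The red cell membrane had the highest median of the 36 lists. Of 24 genes tested 19 rose and 0 fell, with a median log2 fold change of 2.86. Aqp1, the water channel of red cells, had 188, 217 and 197 CPM in AG120 and 21.6, 16.8 and 16.5 in vehicle. Kel, the Kell blood group protease, had 8.23, 8.23 and 5.43 CPM in AG120 and 0.427, 0 and 0.33 in vehicle. For both genes every AG120 library was several times above the highest vehicle library. Tspo2, a cholesterol-binding protein of erythroid cells, rose from 1.22 ± 0.409 to 33.6 ± 0.788 CPM. In the membrane skeleton, Add2, beta-adducin, rose from 1.71 ± 0.0593 to 30.9 ± 4.65 CPM and Ank1, ankyrin, rose from 0.778 ± 0.213 to 16.2 ± 2.42 CPM; the end of Ank1 overlaps a low-level gene model. Rhag, the Rh-associated glycoprotein, rose from 1.7 ± 0.252 to 18.3 ± 3.94 CPM and Car2, a carbonic anhydrase, rose from 45.7 ± 4.62 to 192 ± 12.5 CPM. Slc4a1, the anion exchanger band 3 (0.294 ± 0.278 CPM in vehicle and 1.07 ± 0.137 in AG120) and Gypc, glycophorin C (6.08 ± 0.428 CPM in vehicle and 7.12 ± 1.46 in AG120) did not pass. Abundant Tmod1, tropomodulin, did not pass either (−0.25 ± 0.14), and its end overlaps Tstd2.

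Adult globin transcripts were low and overlapped between the groups. Hbb-bt, a beta-globin gene, had 32.6, 58.5 and 23 CPM in AG120 and 15.4, 44.3 and 23.1 in vehicle. Hba-a1, an alpha-globin gene, had 15.2, 39.7 and 9.26 CPM in AG120 and 1.99, 18.7 and 7.59 in vehicle. In both groups replicate 2 was the highest for both genes. Neither passed (adjusted p = 0.687 and 0.427), and since these genes have near-identical copies their counts are uncertain. Of 12 globin genes and helpers tested 3 rose and 1 fell (median 0.54); the 1 that fell was Xpo7, a nuclear exportin of red cell precursors, at −0.83 ± 0.12. Summed over 14 erythroid precursor markers, the level was 479.5 to 593 CPM in AG120 and 51.7 to 127 CPM in vehicle, with 8 markers higher, none lower and none at 0 in all 6 libraries. The part of a changed mix of sorted cells in these results was not tested.

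Most genes of heme synthesis and handling rose, the entry enzymes apart. Cpox, coproporphyrinogen oxidase, had 133, 160.1 and 132 CPM in AG120 and 13.2, 13.9 and 15.7 in vehicle. The groups were far apart, at a 9.91-fold rise. Of 26 genes of heme synthesis and handling tested 20 rose and 1 fell, with a median of 1.27. At the entry, Alas1, the general enzyme (8.43 ± 0.902 CPM in vehicle and 3.97 ± 1.22 in AG120) and Alas2, the erythroid one (0.867 ± 0.71 CPM in vehicle and 1.42 ± 1.39 in AG120) did not pass, and the end of Alas2 overlaps Apex2. Later steps rose: Alad by 2.40 ± 0.20, Uros by 2.18 ± 0.39 and Urod by 1.48 ± 0.22. Fech, which inserts the iron, rose from 3.17 ± 0.352 to 14.3 ± 1.51 CPM. Ppox, which works between Cpox and Fech and whose end overlaps B4galt3, was called at 0.34 ± 0.13 (adjusted p = 0.0485), a call lost without AG120 replicate 1 (0.34, adjusted p = 0.0987), without AG120 replicate 2 (0.35, adjusted p = 0.0912), without AG120 replicate 3 (0.33, adjusted p = 0.111), without vehicle replicate 1 (0.29, adjusted p = 0.153) and without vehicle replicate 2 (0.30, adjusted p = 0.153). It was also lost under 7 other alternatives, with adjusted p from 0.0583 (replicate block) to 0.545 (thinned libraries). Of the genes that carry or handle heme, Tmem14c, a mitochondrial porphyrin carrier, rose from 148 ± 9.12 to 371 ± 9.67 CPM and Hebp1, a heme-binding protein, rose by 3.33 ± 0.25. Hmox2, the constitutive heme oxygenase, fell by 0.82 ± 0.17, and its end overlaps Cdip1.

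Most iron genes rose. Slc40a1, ferroportin, which exports iron, had 9.75, 14.4 and 8.94 CPM in AG120 and 0.712, 0.442 and 0.33 in vehicle. Tfrc, the transferrin receptor, had 66.9, 64.2 and 68.3 CPM in AG120 and 15.2, 17.5 and 14.6 in vehicle. Export and uptake genes were thus both higher in every AG120 library. Of 27 tested 17 rose and 1 fell (median 0.80). Steap3, an iron reductase, rose from 1.38 ± 0.757 to 15.5 ± 0.377 CPM, and Slc11a2, the transporter DMT1, rose from 8.21 ± 0.725 to 42.6 ± 1.78 CPM. Glrx5, a glutaredoxin of iron-sulfur cluster assembly, rose from 67.8 ± 8.56 to 221 ± 4.16 CPM. Fth1, ferritin heavy chain, rose by 0.62 ± 0.11, and Ncoa4, which takes ferritin to the lysosome, was the 1 that fell, at −1.12 ± 0.25.

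**Figure D2:**
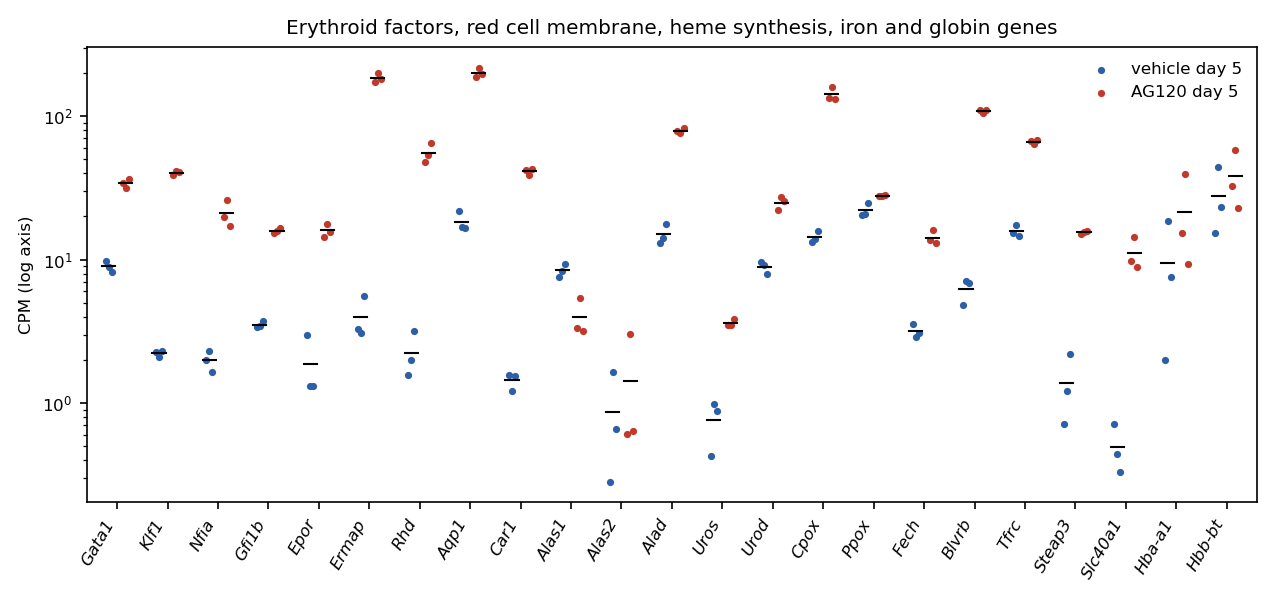
CPM on a log axis of erythroid factor, red cell membrane, heme, iron and globin genes, 1 point per library (blue vehicle day 5, red AG120 day 5, n = 3 each), with a line at each group's mean. Klf1, Cpox and Slc40a1 show separate groups, whereas Alas2, Hba-a1 and Hbb-bt overlap.

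Of the granulocyte and monocyte factors that passed, most fell. Spi1, which encodes PU.1, had 6.7, 6.72 and 5.27 CPM in AG120 and 25.9, 33.8 and 32 in vehicle. No library overlapped, and Spi1 fell 4.91-fold (log2 fold change −2.29 ± 0.23, edgeR's adjusted p = 1.22e-06). Of 30 such factors tested 2 rose and 11 fell (median −0.49). Runx2, a RUNX factor, fell by 2.67 ± 0.45 and Irf1, an interferon-regulated factor, fell by 1.31 ± 0.23. Jun, an immediate early factor, had 225, 89.5 and 135 CPM in AG120 and 208, 36.1 and 43.6 in vehicle and did not pass (adjusted p = 0.613), with replicate 1 highest in each group. Of the PU.1-letter genes shown above, Fmnl1 fell from 19.5 ± 1.94 to 5.58 ± 0.449 CPM and Havcr2 fell from 2.59 ± 1.08 to 0.485 ± 0.184 CPM.

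Markers of other cell types were summed too. The sort required cKit and left out CD11b, which would remove mature neutrophils, monocytes and macrophages, and most lymphocytes and stromal cells. Neutrophil markers summed to 123 to 210.3 CPM in AG120 and 587 to 779.7 in vehicle, with 3 of 11 tested lower and 8 not passing. S100a8 alone held 91.6 of a mean sum of 169 CPM in AG120 and 384 of 703 in vehicle. Megakaryocyte markers summed to 62.1 to 88.8 CPM and 372 to 453 CPM, with 6 of 10 lower. Itga2b, which is also a progenitor marker and is described further on, held the largest part of these sums. For mast cells and basophils the sums were 79.5 to 85.1 and 176 to 194 CPM (3 of 5 lower, with Mcpt4, Tpsab1, Cma1 and Mcpt1 at 0 throughout). Gata2, also among the erythroid and megakaryocyte factors above, held 29.4 CPM of the sum in AG120 and 68.9 in vehicle. The sums of monocyte and macrophage markers overlapped, at 27.6 to 32.0 and 30.2 to 34.2 CPM, with 1 of 7 tested higher and 2 lower. Those of T and NK cells summed to 11.3 to 12.95 CPM in AG120 and 40.3 to 47.4 in vehicle (2 of 3 tested lower, with Cd4, Cd8b1, Trbc2 and Klrb1c at 0). Stromal and endothelial markers summed to 21.4 to 29.9 and 104 to 113 CPM (1 of 3 tested lower, with Col3a1 and Cdh5 at 0). B and plasma cell markers summed to 1.28 to 2.44 and 4.53 to 5.94 CPM (1 of 2 tested lower, with Pax5, Vpreb3 and Igll1 at 0), and dendritic cell markers at 15.3 to 19.96 and 9.25 to 16.2 CPM (1 of 6 tested higher and 1 lower, with Cd209a at 0). Their part in the results was not tested.

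Stem cell and leukemia factors were lower more often than higher. Meis1, the HOX cofactor of stem and leukemic cells, had 21.5, 14.3 and 17.7 CPM in AG120 and 185, 149.97 and 142 in vehicle. Every AG120 library was lower, and Meis1 fell 8.92-fold. Of 23 tested 3 rose and 11 fell (median −0.63). Erg, an ETS factor of stem cells, fell from 15.8 ± 0.978 to 2.69 ± 0.859 CPM. Sox4, a factor of progenitor growth, fell from 354 ± 89.4 to 43.8 ± 13.3 CPM, and a gene model that overlaps its end, Gm26735, stood at 335 CPM in vehicle and 41.3 in AG120, so their reads may be shared. Myc, a driver of cell growth, had 21, 30.6 and 24.8 CPM in AG120 and 12.2, 7.07 and 9.68 in vehicle. It rose 2.63-fold without overlap. Trib2, a pseudokinase, rose by 2.23 ± 0.50.

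Lymphoid factors split. Ikzf1, which encodes IKAROS, had 99.8, 97.3 and 92.9 CPM in AG120 and 44.7, 49.4 and 50.3 in vehicle. Ikzf2, which encodes its relative HELIOS, had 14.8, 13.4 and 11.5 CPM in AG120 and 57.4, 53.4 and 57.2 in vehicle. The pair moved in opposite directions, each without overlap. Of 15 tested 3 rose and 4 fell (median −0.18). Bcl11a, also a silencer of fetal globin, rose from 70.9 ± 1.52 to 142 ± 2.06 CPM, and Foxp1, a forkhead factor, fell by 1.04 ± 0.17.

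Surface markers of stem and progenitor cells fell in nearly all cases that passed. Cd93, a receptor of stem and leukemic progenitor cells, had 8.69, 7.06 and 6.55 CPM in AG120 and 67.2, 69.2 and 72.6 in vehicle. The libraries were close together within a group and far apart between groups, at a 9.38-fold fall. Of 22 tested 1 rose and 10 fell (median −0.84). Cd244a, a SLAM family receptor, fell by 4.17 ± 0.30, and Itga2b, the CD41 chain of progenitors and platelets, fell from 231 ± 27.6 to 38.5 ± 10.5 CPM. Eng, endoglin, rose from 32.5 ± 0.652 to 70.9 ± 9.89 CPM, but its end overlaps that of Fpgs, which rose more. Kit, the receptor of the sort, had 24.1, 33.1 and 23.6 CPM in AG120 and 35.6, 33.5 and 37.8 in vehicle and did not pass (adjusted p = 0.393). Itgam, the CD11b chain selected against, fell from 12.8 ± 2.5 to 3.13 ± 0.634 CPM, and its end overlaps an unnamed gene model.

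Receptors for cytokines and other signals fell more often than they rose. Il6ra, the interleukin-6 receptor, had 0.914, 0.504 and 0.319 CPM in AG120 and 8.83, 9.28 and 8.25 in vehicle. Il9r, the interleukin-9 receptor, fell by 4.54 ± 0.53, and Acvr1b, an activin receptor, fell by 3.72 ± 0.36. Il6ra did not overlap between the groups and lay below 1 CPM in AG120. Of 52 cytokine and growth factor receptors tested 5 rose and 28 fell (median −0.94). Tgfbr3, betaglycan, rose by 3.76 ± 0.81, from a level near the floor (0.132 ± 0.144 CPM in vehicle and 1.87 ± 0.332 in AG120). Among 44 G protein-coupled receptors 9 rose and 19 fell (median −1.28): Adgrl4, an adhesion receptor of endothelial and stem cells, fell by 5.26 ± 0.46 and Cnr2, a cannabinoid receptor, rose by 1.21 ± 0.30. P2ry14, a receptor for UDP-sugars, fell by 3.59 ± 0.40, and its end overlaps Med12l. Among 32 integrins and adhesion molecules 6 rose and 19 fell (median −1.44). Nectin2, a junction protein, rose by 5.71 ± 0.92, from 0.0475 ± 0.0822 to 3.06 ± 0.821 CPM. Itga1, a collagen-binding integrin chain, fell by 3.68 ± 0.86, from 2.26 ± 0.585 to 0.165 ± 0.168 CPM. The lower level of each was near the floor, so the size of these changes is uncertain. Icam4, the red cell LW antigen, rose by 2.37 ± 0.32, with a gene model at its end that rose too.

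Immune receptors of the myeloid surface had the lowest median of the 36 lists, −1.72: 23 of 35 fell and 0 rose. Cd52, a short glycoprotein of leukocytes, had 7.92, 5.71 and 8.14 CPM in AG120 and 84.9, 90.8 and 88.5 in vehicle. Tyrobp, the DAP12 signalling chain, had 4.72, 2.02 and 2.56 CPM in AG120 and 35, 40.6 and 40.8 in vehicle. The groups were separate for both. Tetraspanins went both ways, 4 of 17 higher and 10 lower (median −0.86): Tspan8 rose from 0.257 ± 0.229 to 8.61 ± 1.12 CPM and Tspan33, an erythroid member, rose from 3.04 ± 0.881 to 14.4 ± 1.54 CPM, while Cd9 fell from 27.6 ± 3.59 to 6.09 ± 0.953 CPM and Cd53, a leukocyte member, fell by 2.37 ± 0.63. Among 35 secreted ligands 3 rose and 14 fell (median −1.09), with Il15, a growth factor of lymphocytes, at −3.39 ± 0.70.

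Of 51 non-receptor tyrosine kinases and adaptors tested, 3 rose, 31 fell and 17 did not pass (median −1.09). Of 39 phosphatases 4 rose, 14 fell and 21 did not pass (median −0.16). Ptprc, the leukocyte phosphatase CD45, had 20.9, 22.5 and 22.5 CPM in AG120 and 113, 104 and 93 in vehicle. The groups were separate, at a 4.7-fold fall. Lat2, an adaptor below immune receptors at chr5:134600022-134615025, had 25, 16 and 19 CPM in AG120 and 222, 198 and 197 in vehicle. Its end overlaps that of Rfc2, a clamp loader subunit at chr5:134581366-134601805 on the other strand, which fell from 285 ± 18 to 73.6 ± 10.2 CPM, and reads of the pair cannot be told apart where counting ignores strand. Btk, a kinase of B and myeloid cells (58.8 ± 2.18 CPM in vehicle and 57.3 ± 1.16 in AG120) did not pass. Ptpre fell from 213 ± 5.77 to 50.2 ± 4.74 CPM, Acp1, a low molecular weight phosphatase, rose from 42.9 ± 3.58 to 86.3 ± 6.3 CPM, and Ptpn11, which encodes SHP2 (69.3 ± 1.44 CPM in vehicle and 72.7 ± 0.951 in AG120) did not pass.

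Further down the pathways the balance differed by module. In the RAS and MAPK pathway 5 of 57 rose and 25 fell (median −0.45). Rassf2, a RAS-binding protein, fell from 56.3 ± 2.9 to 8.25 ± 1.73 CPM, Map3k14, the NF-kB inducing kinase, fell by 3.15 ± 0.31, and Mapk9, which encodes JNK2, rose by 1.20 ± 0.19. Nras had 62.9, 72.1 and 72.8 CPM in AG120 and 70.9, 67.6 and 78.1 in vehicle and did not pass (adjusted p = 0.741). Its groups overlapped. In PI3K, AKT, mTOR and FOXO signalling 6 of 45 rose and 15 fell (median −0.20): Pik3r5, a regulatory subunit, fell by 2.57 ± 0.68, Sesn3, which restrains mTOR, fell by 2.42 ± 0.32, and Irs2, an insulin receptor substrate, rose by 1.55 ± 0.36. Among 27 genes of the STAT and SOCS list, which holds other genes too, 1 rose and 8 fell (median −0.26). Of those others, Bcl2l1, which encodes the survival protein BCL-XL, was at −1.88 ± 0.21 and Pim2, a survival kinase, at −2.09 ± 0.49. WNT and NOTCH genes were near the shares of all genes, with 7 of 32 higher and 7 lower (median −0.03). Hes1, a NOTCH target, rose from 0.469 ± 0.373 to 5.36 ± 2.35 CPM. In calcium, phospholipase C and protein kinase C signalling 3 of 51 rose and 27 fell (median −0.65), with P2rx1, an ATP-gated channel, at −3.75 ± 0.61.

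Actin and motility genes had the highest share of lower members of the 36 lists, 48 of 66, with 4 higher and a median of −1.03. Lsp1, an F-actin binding protein of leukocytes, had 1.98, 1.18 and 1.597 CPM in AG120 and 28.9, 26.1 and 26.4 in vehicle. It was far lower in every AG120 library. Plek, pleckstrin, fell from 149.9 ± 16.1 to 15.6 ± 1.39 CPM, Pstpip1, an adaptor of the leukocyte cytoskeleton, fell from 36.1 ± 0.728 to 4.06 ± 1.37 CPM and Tln1, talin, which couples integrins to actin, fell from 386 ± 9.37 to 163 ± 7.01 CPM. Rdx, radixin, rose from 118 ± 2.24 to 164 ± 11.6 CPM and Plek2, a pleckstrin relative of erythroid cells, rose from 0.194 ± 0.0451 to 3.13 ± 0.457 CPM.

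**Figure D3:**
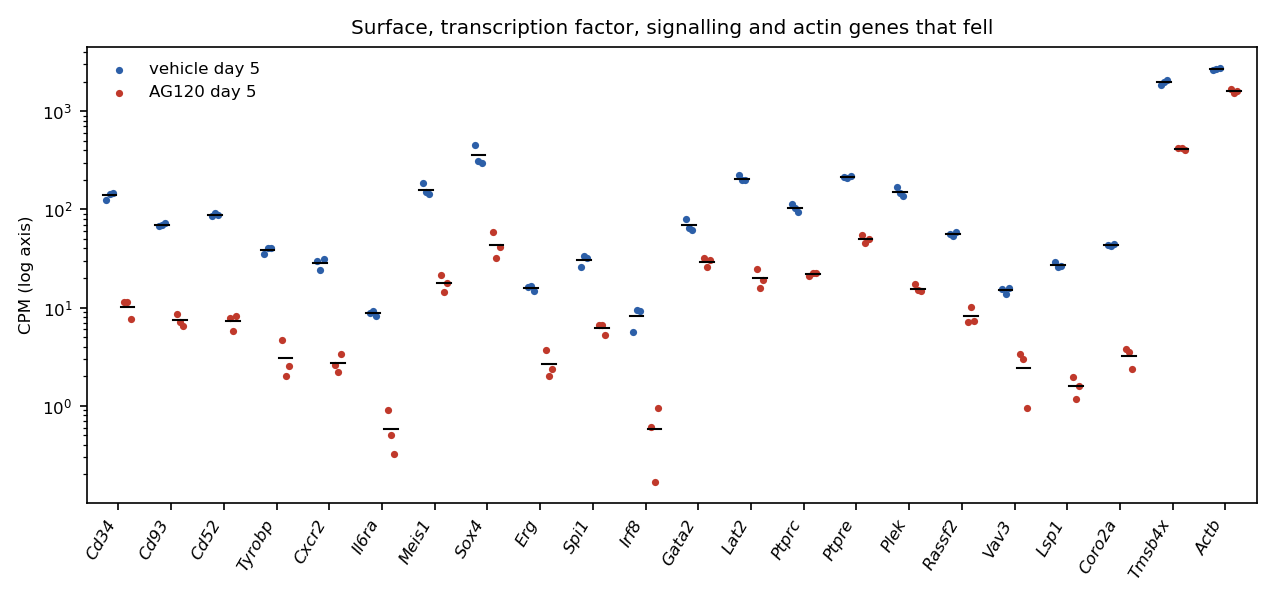
CPM on a log axis of surface, transcription factor, signalling and actin genes that fell, 1 point per library (blue vehicle day 5, red AG120 day 5, n = 3 each), with a line at each group's mean. The groups are apart for each gene drawn, over levels from below 1 CPM (Irf8 in AG120) to those of Actb; the ends of Sox4, Lat2, Cd34, Irf8 and Coro2a overlap other genes.

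Genes around 2-oxoglutarate mostly moved by small steps. Idh2, the mitochondrial isocitrate dehydrogenase, had 60.2, 61.7 and 63.2 CPM in AG120 and 109.8, 115 and 109.8 in vehicle. Every AG120 library was lower, and Idh2 fell by 0.85 ± 0.15. Of 44 genes of the tricarboxylic acid cycle and its entry points 23 rose and 4 fell (median 0.46), but only 2 rose and 1 fell over 2-fold. Dlat, the E2 subunit of pyruvate dehydrogenase, rose by 0.98 ± 0.23, and Mdh1, cytosolic malate dehydrogenase, fell by 0.63 ± 0.12. In fatty acid oxidation 12 of 33 rose and 2 fell (median 0.07), with Cpt2, a carnitine transferase, at 0.85 ± 0.18. Apart from these metabolic genes, Dnmt3a, a DNA methyltransferase, fell 2.63-fold, from 110.5 ± 3.01 to 42.1 ± 1.596 CPM.

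The pyruvate kinase genes moved in opposite directions. Pklr, the liver and red cell form at chr3:89136142-89146784, had 28.8, 32.1 and 31 CPM in AG120 and 1.139, 0.774 and 1.87 in vehicle. Pkm, the form of most other cells, had 18.6, 12.9 and 13.1 CPM in AG120 and 78.2, 97.9 and 86.7 in vehicle. Pklr rose 24.3-fold and Pkm fell 5.89-fold, so that the order of the pair was turned around; the end of Pklr overlaps Hcn3, which rose too. In glycolysis and the pentose phosphate path as a whole 12 of 41 rose and 11 fell (median −0.20). Slc16a1, the lactate transporter MCT1, rose from 20.8 ± 3.27 to 70.1 ± 5.41 CPM, and Slc2a1, the glucose transporter GLUT1, fell from 4.98 ± 0.469 to 1.76 ± 0.295 CPM.

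Of 28 serine, folate and methionine genes, 13 rose, 1 fell and 14 did not pass (median 0.45). Mthfd1, a cytosolic folate enzyme, had 93.1, 93.1 and 84.6 CPM in AG120 and 22.4, 20.6 and 22.4 in vehicle. The groups were separate, at a 4.14-fold rise. Fpgs, which traps folate in cells, rose from 10 ± 2.04 to 50.5 ± 7.74 CPM (its end overlaps that of Eng), while Phgdh, the entry to serine synthesis (71.6 ± 11.9 CPM in vehicle and 74 ± 3.61 in AG120) did not pass. Of 50 purine and pyrimidine genes 26 rose, 5 fell and 19 did not pass (median 0.45). Cad, which starts pyrimidine synthesis, rose from 12.1 ± 2.19 to 29.7 ± 2.98 CPM and Samhd1, which degrades deoxynucleotides, fell by 0.85 ± 0.12. Among 16 polyamine genes 6 rose and 1 fell (median 0.35), with Srm, spermidine synthase, at 1.11 ± 0.26 and Oat, ornithine aminotransferase, at 1.596 ± 0.16.

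Of the 47 genes of glutathione, thioredoxin and oxidant defence tested, 23 rose, 6 fell and 18 did not pass (median 0.45). Mt2, a metallothionein, had 599, 618 and 478 CPM in AG120 and 5.7, 7.63 and 9.13 in vehicle. Gclm, the regulatory subunit of glutathione synthesis, had 103, 121.3 and 129 CPM in AG120 and 27.9, 27.6 and 25.7 in vehicle. Mt2 rose 75.5-fold, and both genes were separate between groups; their ends overlap gene models of lower level. Prdx6, a peroxiredoxin, rose from 146 ± 13.7 to 443 ± 7.93 CPM and Nfe2l2, which encodes NRF2, rose from 28.1 ± 1.32 to 54.5 ± 5.74 CPM. Abundant Gpx1, a glutathione peroxidase (301 ± 27.9 CPM in vehicle and 304 ± 13.7 in AG120) did not pass, and Prdx5, a mitochondrial peroxiredoxin, fell by 1.27 ± 0.23. Of 9 NADPH oxidase genes, whose product makes superoxide, 5 fell, 0 rose and 4 did not pass (median −1.66). Ncf4 was at −2.13 ± 0.32 and Rac2 at −1.77 ± 0.15, while Cyba, a membrane subunit whose end overlaps Gm20388 (47.8 ± 3.69 CPM in vehicle and 46.2 ± 3.15 in AG120) did not pass. Among 26 genes of NAD synthesis and use 6 rose and 5 fell (median 0.35); Nadk2, the mitochondrial NAD kinase, rose from 17.9 ± 1.4 to 63 ± 3.98 CPM.

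Lipid and glycan genes moved both ways. Sphk1, a sphingosine kinase, had 20.3, 20.2 and 18 CPM in AG120 and 1.71, 1.88 and 2.31 in vehicle. Ptgs1, which encodes COX-1, had 1.68, 1.51 and 2.08 CPM in AG120 and 11.7, 8.62 and 12.1 in vehicle. Sphk1 was higher and Ptgs1 lower in every AG120 library. Of 59 eicosanoid, sphingolipid and phospholipid genes 13 rose and 21 fell (median −0.35). Alox5ap, needed to make leukotrienes, fell from 84.6 ± 10.8 to 11.7 ± 0.808 CPM, and a gene model that overlaps its end fell too. Pcyt1a, of phosphatidylcholine synthesis, rose by 1.71 ± 0.15. Of 54 glycosyltransferases 7 rose and 22 fell (median −0.67): Ugcg, which makes glucosylceramide, rose by 1.61 ± 0.22, St3gal5, which makes the ganglioside GM3, rose by 1.87 ± 0.24, and B4galt5, a galactosyltransferase, fell by 2.61 ± 0.48. In lipid uptake, activation, storage and efflux 12 of 44 rose and 11 fell (median 0.02), with Acss1, a mitochondrial acetyl-CoA synthetase, from 14.8 ± 0.38 to 72.3 ± 12 CPM.

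**Figure D4:**
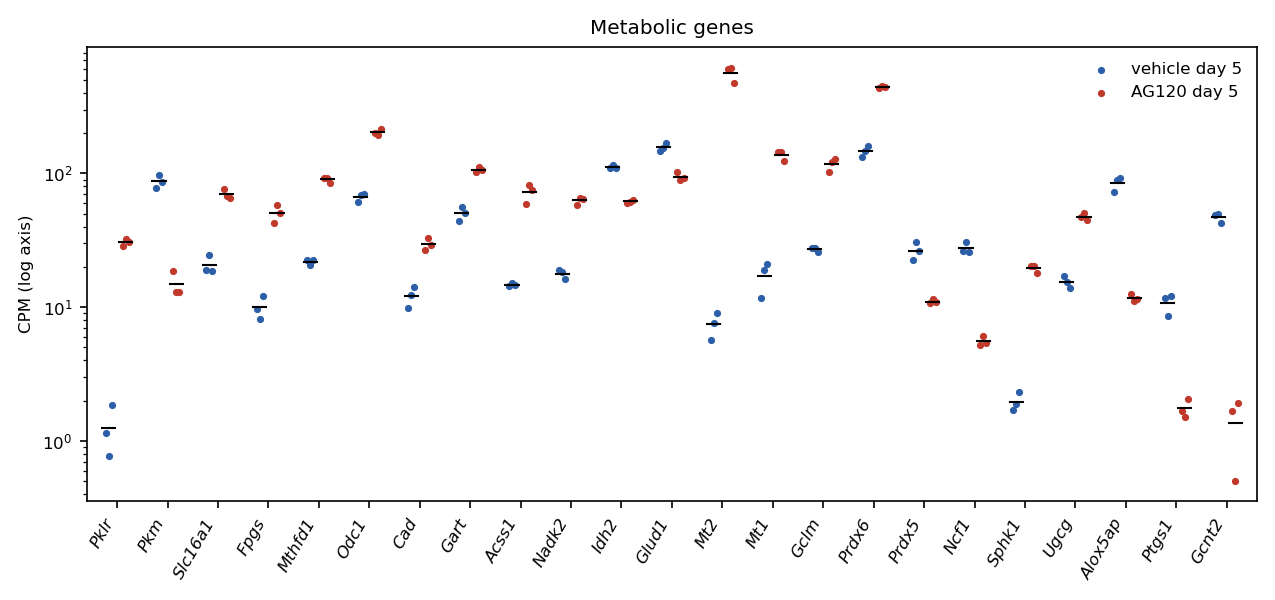
CPM on a log axis of metabolic genes, 1 point per library (blue vehicle day 5, red AG120 day 5, n = 3 each), with a line at each group's mean. Pklr and Pkm exchange their order, and Mt2 shows the widest gap of the genes drawn. The ends of Pklr, Fpgs, Gart, Mt2, Gclm, Ncf1, Alox5ap and Gcnt2 overlap other genes.

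**Figure D5:**
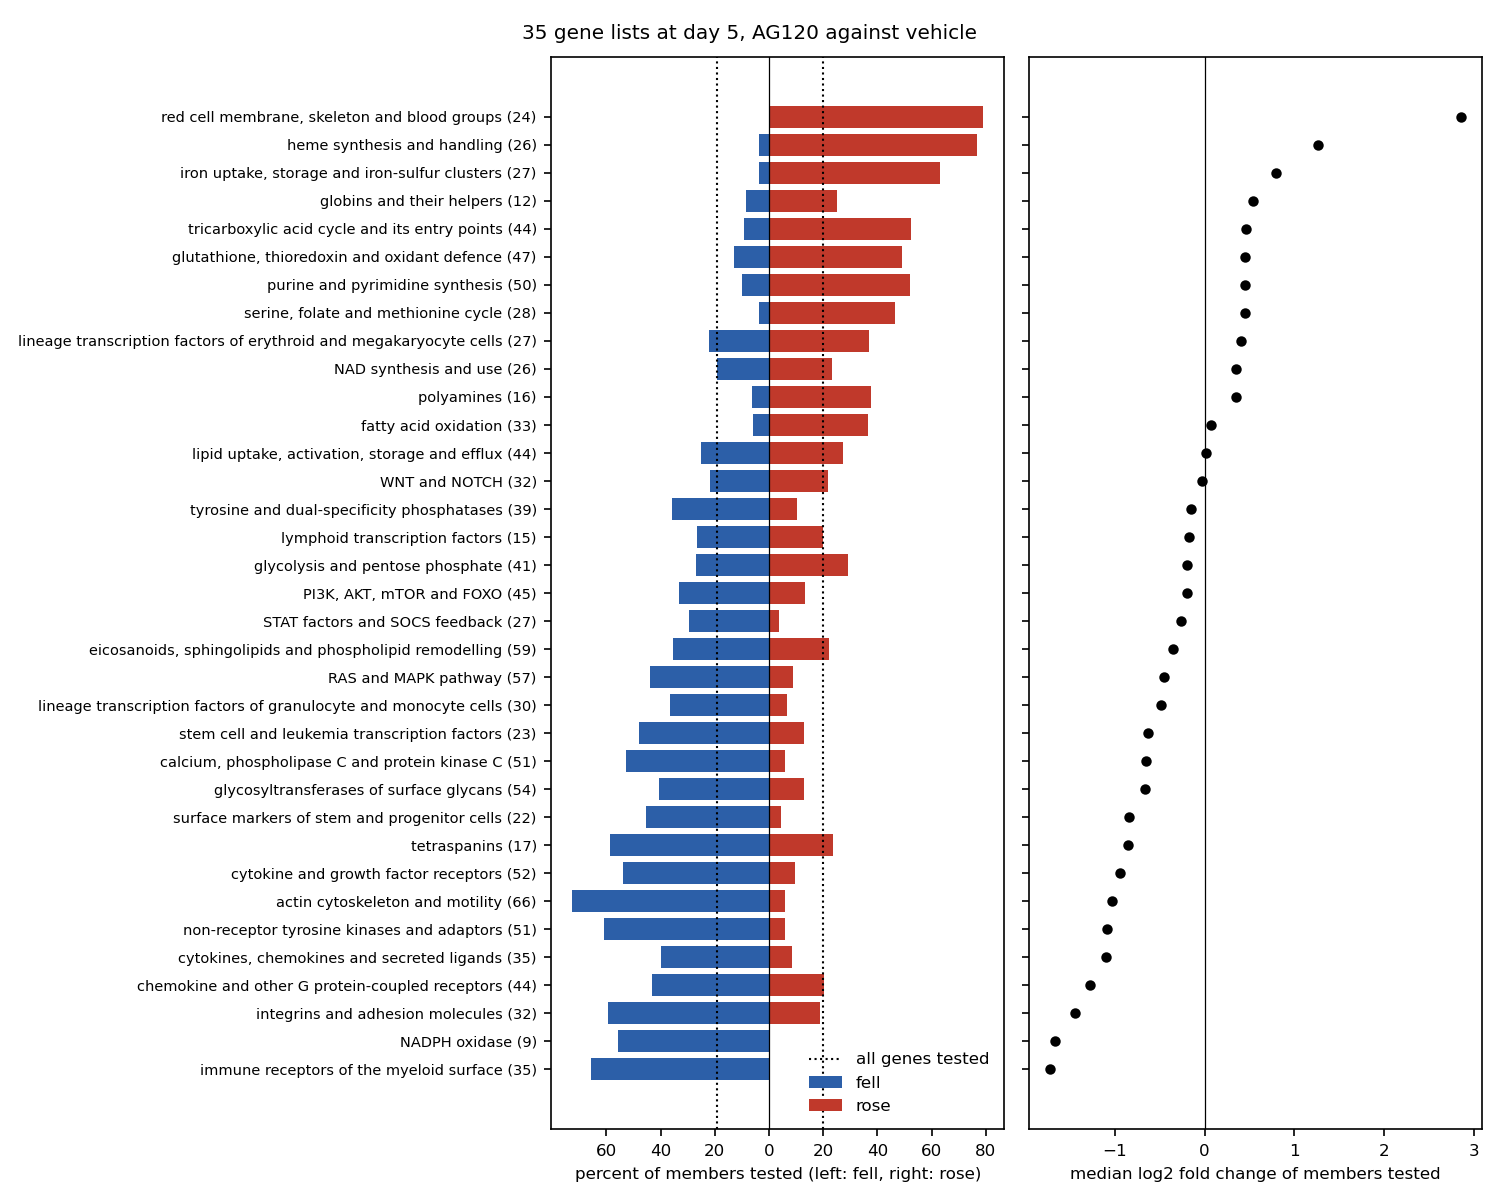
Left, percent of the members tested that rose (red, to the right) or fell (blue, to the left) in each of 35 of the 36 gene lists, with the number tested in brackets and the shares of all genes tested as dotted lines (20.1% and 19.3%); right, the median log2 fold change of each list. The red cell membrane list stands at the top with a median of 2.86 and immune receptors of the myeloid surface at the bottom with −1.72.

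Some genes were nearly silent in 1 group. With at most 3 counts over the 3 libraries of a group and at least 60 over those of the other, 9 genes were near off in vehicle and 11 in AG120. Hpn, the membrane protease hepsin, had 0 counts in vehicle and 91 in AG120, at least 40.7-fold higher with 3 counts allowed over the vehicle group (the exact 95% lower limit was 32.4). Tmprss3, also a membrane protease, had 60 counts in vehicle and 0 in AG120, at least 14.9-fold lower by the same floor over the AG120 group (exact 95% lower limit 11.8). Gstm5, a glutathione transferase, had 134 counts in AG120 and 2 in vehicle, a depth-scaled ratio of 89.8 (exact 95% interval 24.4 to 749). Slc26a1, an anion transporter whose end overlaps Idua, had 94 and 3, a ratio of 42.0 (13.9 to 207.3). In the other direction Zfp467, a zinc finger factor, had 3 counts in AG120 and 125 in vehicle, a ratio of 31.1 in favour of vehicle (10.4 to 153). These intervals cover counting error only.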

How the data were processed

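Cells were sorted per mouse and their RNA sequenced from the 3′ end by QuantSeq, per the labels' protocols. The authors deposited raw counts for 52636 gene identifiers, without normalization. The tools named in the submitters' processing notes include HISAT2 2.1.0, featureCounts of Subread 1.6.3 and the build mm10; whether counting used strand, shared reads or molecular identifiers is not given in the sources used here. For 73 of 411 genes considered for the text, the last kilobase overlaps another tested gene. The text or a caption says so ("its end overlaps") for those of them that it names. GENCODE annotation (GRCm38) matched 52489 identifiers, and 22670 had no count.

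Genes were filtered with filterByExpr (minimum count 10), scaled by TMM and fitted with edgeR 4.0.16 (robust quasi-likelihood, 1 coefficient per group, all 14 libraries, including 2 of AG120 day 14, 2 of vehicle day 14 and 4 of relapse) in R 4.3.3. Adjusted p-values are Benjamini-Hochberg values over 11994 genes; "rose", "fell" and "passed" mean an adjusted p under 0.05. Log2 CPM used a prior count of 2. The p-values rest on the spread between mice of a group, estimated for each gene over all 14 libraries together and not from the day 5 libraries alone. A gene that varied in another group could thus fail to pass although its day 5 libraries lay close together.

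Genes were named by size (15 per direction at a mean log2 CPM of at least 3, groups not overlapping), by level (15 per direction), by list (up to 4 per direction, and the 2 of highest level that did not pass), when near off in 1 group, and for the model and sort; the text gives part of these, and some results are not reported here. Further pathway steps and list members were named after their values were seen. The comparison, the 36 lists (from textbook knowledge) and these rules were chosen with earlier results of these data known; 4 of 1772 list entries matched no identifier, and lists were described without a test. Alternatives were DESeq2 size factors, DESeq2 1.42.0, limma-voom (limma 3.58.1), no filter, the compared groups alone, ribosomal RNA models removed with and without TMM, thinned libraries, a replicate block and each library left out. No pair of replicates agreed within sampling noise (chi-square per degree of freedom 1.94 to 13.8).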

Additional observations from a re-analysis of the deposited data

Results flagged for a closer look

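For 9 genes given here, the AG120 effect differed between day 14 (2 mice a group) and day 5 (3 mice a group) in edgeR's test of the difference itself; 112 of 11994 genes passed this test, and 87 of them had also passed at day 5. Values are day 14 minus day 5 on the log2 scale, ± SE. Lyz2, lysozyme, stood at −3.62 at day 5 and −0.63 at day 14 (2.98 ± 0.55, adjusted p = 0.0269). Myc stood at 1.40 and −0.33 (−1.74 ± 0.35, adjusted p = 0.0272) and Myb at 0.50 and −0.70 (−1.20 ± 0.19, adjusted p = 0.00664). Genes that were lower at day 5 and lower still at day 14 were Ikzf2 (−1.80 ± 0.38), Pik3ip1, an inhibitor of PI3K (−2.60 ± 0.47), Ptpn18, a phosphatase (−1.53 ± 0.20), Xpo7 (−1.11 ± 0.19) and Ggh, a folate hydrolase (−2.21 ± 0.50). Pik3cd, a PI3K catalytic subunit, stood at 0.01 and −2.03 (−2.04 ± 0.36). The day 5 call of Ggh was lost without AG120 replicate 1 (−0.65, adjusted p = 0.0998), without AG120 replicate 2 (−0.75, adjusted p = 0.065), without AG120 replicate 3 (−0.76, adjusted p = 0.0634), without vehicle replicate 1 (−0.70, adjusted p = 0.0714) and without vehicle replicate 2 (−0.67, adjusted p = 0.087).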

How the results depend on the processing

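The counts of genes that rose or fell at day 5, in all and over 2-fold, stayed within 1.5 times of the values given under every alternative run: 3716 to 3873 genes were called with 1 library left out, 3732 in thinned libraries and 6186 with the compared groups alone. With a replicate block 4677 were called, 4521 of them among the 4730. Deviations of same-numbered libraries correlated at 0.107, 0.0491 and 0.0171, and those of other pairs at −0.106 to 0.0770. The labels name no batch, and whether same-numbered libraries shared one was not tested. The median of all genes moved to −0.092 at most. The share of calls that were higher was 51.0%, and 42.4% with ribosomal RNA models removed and no TMM. Of 328 checked genes that passed, 277 kept the call under every alternative run, and no called value changed sign; 72 values of 17 genes that passed in neither fit did, none above 0.51 in size. Of 6106 values of checked genes under the alternatives, 227 lost the call and 62 gained one. Some checked genes that did not pass here thus passed under an alternative. Of 1620 list values 225 moved. The difference between the day 14 and day 5 effects was called for 187 genes by DESeq2, 31 by limma-voom, 374 with no filter on low counts, 869 with only the groups compared and 13 to 61 with a library left out. Vehicle day 14 against day 5 gave 33 genes with no filter and 236 with only the groups compared. The cause was not tested. With 2275579 to 3358874 counts outside ribosomal RNA per library, genes of few counts have wide errors.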
